A study of Saccharomyces cerevisiae with 12 samples.

Results

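RRP6 encodes the nuclear 3′ to 5′ exonuclease of the RNA exosome of budding yeast, Saccharomyces cerevisiae, and is described here with its cofactors LRP1 and MPP6 and with MTR4, PAP2, TRF5, AIR1 and AIR2, the genes of the TRAMP complex. These 8 genes were taken by name from the 5798 genes of a table of 12026 features, and all 8 were kept by the filter on low values. The libraries hold total RNA after removal of ribosomal RNA, sequenced strand by strand as read pairs of 50 nt from each end. There were 6 groups of 2 biological replicates. They were wild type with FU (5-fluorouracil, going by the title of the series), the rrp6 mutant without FU, and wild type without FU, each at 40 min and at 100 min after synchronization. The dose of FU, the time at which it was added, the way the cells were synchronized and the extent of the rrp6 deletion are not stated in the labels.

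As background, the exosome degrades or trims RNA from the 3′ end, and in the nucleus Rrp6 is joined to its core. TRAMP prepares RNA for it: a poly(A) polymerase, Pap2 (also called Trf4) or its paralog Trf5, adds a short tail with the help of a zinc-knuckle RNA-binding protein, Air1 or Air2, and the helicase Mtr4 unwinds the RNA and passes it on. Without Rrp6, short-lived non-coding transcripts such as CUTs (cryptic unstable transcripts) accumulate in yeast. 5-Fluorouracil is a pyrimidine analog used against cancer that is built into RNA.

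Values are read densities, which are reads per nucleotide of a gene after the authors scaled each library to the same total over genes. Reads summed over all features were 20102931 to 27498217 per library, where a read on overlapping features can count more than once. Over genes alone the sums were 14370740 to 20441202. The snoRNA share of the sum over all features was 10.1% and 20.9% in the replicates of FU at 40 min. In those of wild type at 40 min this share was 11.7% and 20.2%, so replicates 1 and 2 of these groups stood apart. It was 9.99% to 10.3% in the 4 rrp6 libraries and 11.9% to 15.4% in the other 4. On the deposited scale the median gene was higher by 0.45 (log2) in rrp6 than in wild type at both times, and higher with FU by 0.37 at 40 min and 0.30 at 100 min. Changes are therefore also given relative to the median gene, and after median of ratios scaling, which sets each library by its median gene. A feature was called at an adjusted p under 0.05 in limma's moderated test on log2(density + 0.0120173), adjusted over 11485 features by the Benjamini-Hochberg method. Comparisons of FU and of rrp6 with wild type share the wild-type libraries. In bulk RNA, fewer cells with a transcript and less of it per cell cannot be told apart.

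In wild type MTR4 was the most abundant of the 8 mRNAs per length, with a mean density of 1.91 ± 0.33 reads per nt (SD, n = 4, both times pooled). It was followed by LRP1 at 1.36 ± 0.44, RRP6 at 1.05 ± 0.19, MPP6 at 0.678 ± 0.262 and PAP2 at 0.550 ± 0.097. AIR1 had a density of 0.444 ± 0.234, TRF5 of 0.174 ± 0.076 and AIR2 of 0.168 ± 0.023. Neighbours in this order all overlapped over the wild-type libraries. Within a library, though, MTR4 was above LRP1, LRP1 above RRP6, RRP6 above MPP6 and AIR1 above TRF5 in 4 of 4. Between PAP2 and AIR1, and between TRF5 and AIR2, the higher gene by mean was higher in 2 of 4. MTR4 lay at the 83.3rd to 88.0th percentile of genes by density, AIR2 at the 27.5th to 31.8th and TRF5 at the 12.8th to 46.8th. The fewest reads behind any value of the 8 genes were 158, for RRP6 in rrp6, and 160, for AIR2 in wild type.

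AIR2 and TRF5, which lay above wild type in all 4 rrp6 libraries, each have a paralog in the set, so the starts of these 4 coding sequences are shown. Each is the first 300 nt of the coding sequence, on the coding strand, from the R64 genome. AIR2 lies at chr4:145219-145518 and AIR1 at chr9:211706-212005, both on the minus strand. TRF5 lies at chr14:66517-66816 and PAP2 at chr15:101475-101774, both on the plus strand. Capitals mark GTAG and GTAA, the tetramers that Nrd1 is known to bind in RNA (as GUAG and GUAA), and TCTT, the tetramer that Nab3 is known to bind (as UCUU). Nrd1 and Nab3 belong to a termination complex that hands transcripts to TRAMP and the exosome.
AIR2: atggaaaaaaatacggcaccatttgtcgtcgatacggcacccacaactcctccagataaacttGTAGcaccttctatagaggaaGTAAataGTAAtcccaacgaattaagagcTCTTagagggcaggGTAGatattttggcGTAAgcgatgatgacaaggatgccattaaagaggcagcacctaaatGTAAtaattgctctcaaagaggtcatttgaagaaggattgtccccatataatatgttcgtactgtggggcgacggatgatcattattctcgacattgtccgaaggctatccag
AIR1: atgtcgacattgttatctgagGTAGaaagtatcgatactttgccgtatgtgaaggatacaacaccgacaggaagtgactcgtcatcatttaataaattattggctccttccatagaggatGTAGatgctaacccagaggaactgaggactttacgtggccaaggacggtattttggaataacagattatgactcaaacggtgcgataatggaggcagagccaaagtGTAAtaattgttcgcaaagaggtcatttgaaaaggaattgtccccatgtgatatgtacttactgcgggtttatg
TRF5: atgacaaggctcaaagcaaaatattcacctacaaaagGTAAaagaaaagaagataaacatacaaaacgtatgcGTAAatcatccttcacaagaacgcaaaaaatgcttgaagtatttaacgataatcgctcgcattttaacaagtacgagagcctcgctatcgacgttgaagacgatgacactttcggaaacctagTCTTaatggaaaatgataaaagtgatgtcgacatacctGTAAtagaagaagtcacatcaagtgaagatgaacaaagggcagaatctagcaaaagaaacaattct
PAP2: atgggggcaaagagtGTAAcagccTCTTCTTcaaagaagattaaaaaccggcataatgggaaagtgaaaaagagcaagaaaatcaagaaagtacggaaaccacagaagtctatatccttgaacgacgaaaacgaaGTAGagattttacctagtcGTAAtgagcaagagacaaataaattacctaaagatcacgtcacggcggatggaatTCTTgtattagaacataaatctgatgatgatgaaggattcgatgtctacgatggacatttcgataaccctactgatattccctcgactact
The AIR2 window holds 6 copies of GTAG or GTAA, and 1.06% of 5466 genes hold as many in the same window. MPP6 holds 5 copies (3.09% of genes), MTR4, PAP2, TRF5 and AIR1 hold 3 each (22.3%), RRP6 holds 2 and LRP1 holds 1. PAP2 has 3 copies of TCTT, 2 of which overlap (16.5% of genes have as many), AIR2, TRF5 and MPP6 have 1 each, and RRP6, LRP1, MTR4 and AIR1 have 0. Over all genes, 78.8% of windows hold GTAG or GTAA and 73.0% hold TCTT on the coding strand. On the other strand 90.3% hold GTAG or GTAA and 94.0% hold TCTT, and there the AIR2 window has 0 copies of GTAG or GTAA and 4 of TCTT. A match is a description of the sequence and shows no binding. The longest identical stretch was 18 nt between AIR2 and AIR1 and 20 nt between TRF5 and PAP2, shorter than a read of 50 nt.

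**Figure D1:**
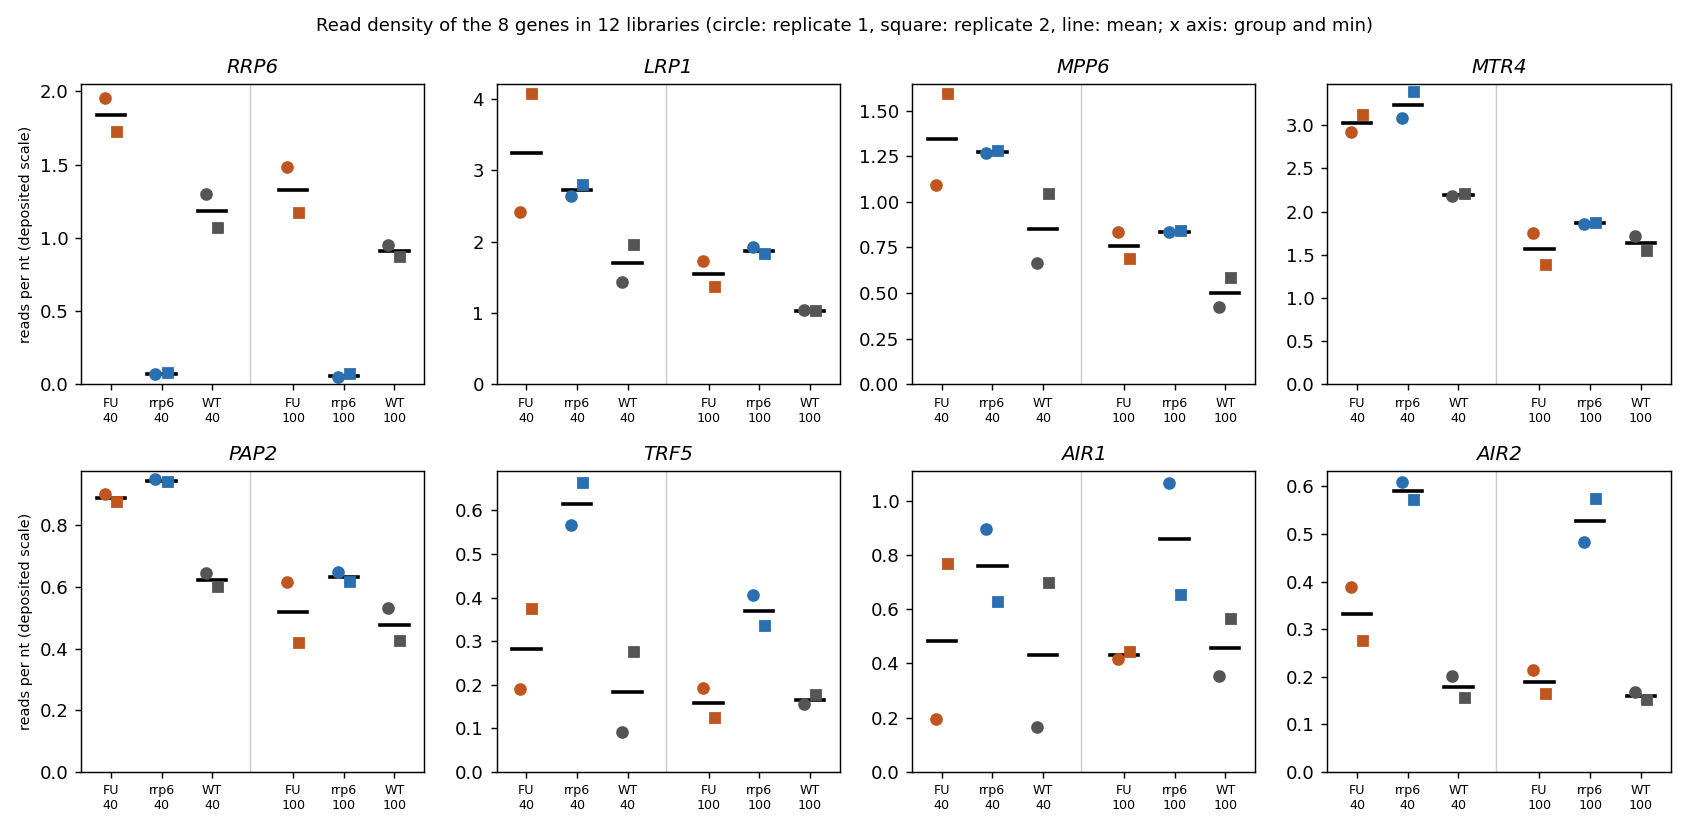
Read density (reads per nt, deposited scale, each vertical axis starting at 0) of the 8 genes in the 12 libraries, with 1 panel per gene; circles are replicate 1, squares replicate 2 and lines the group mean. RRP6 is near 0 in rrp6, AIR2 in rrp6 lies at 0.483 to 0.609 above every other library, and AIR1 differs between the replicates of FU and of wild type at 40 min.

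RRP6 itself was the check of the labels. It had densities of 0.0675 and 0.0781 reads per nt in rrp6 at 40 min and 0.0507 and 0.0696 at 100 min. In wild type it had 1.30 and 1.07 at 40 min and 0.951 and 0.868 at 100 min. The rrp6 libraries lay far below all others, and RRP6 changed by -3.81 ± 0.21 (log2 ± SE) at 40 min and by -3.69 ± 0.21 at 100 min (adjusted p = 9.10e-06 and 9.01e-06). The signal was not 0: 158 to 241 reads per rrp6 library were still counted on RRP6. The table gives 1 value per gene, so the position of these reads within RRP6 is unknown. The neighbour downstream, ALG6 (a glucosyltransferase of N-glycan assembly), had a log2 change of -0.20 ± 0.15 (adjusted p = 0.259) over both times. The neighbour upstream, PHO80 (a cyclin of phosphate regulation), rose by 1.25 ± 0.14 (adjusted p = 3.42e-05). PHO80 was still called higher after median of ratios scaling, by 0.78, and ALG6 was called lower, at -0.68.

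At 40 min 5 of the 8 genes were called higher and 1 lower in rrp6 than in wild type, where 54.2% of all features were called higher and 2.85% lower (32.3% and 5.26% of genes). At 100 min 3 were called higher and 1 lower, against 57.1% and 2.8% of features (34.5% and 5.15% of genes). For the mean of both times 6 were called higher and 1 lower, against 66.4% and 4.14% of features and 46.3% and 7.6% of genes. The gene called lower was RRP6 each time. Without rrp6 replicate 2 the count called at 40 min was 3 in all, and at 100 min it was 2 without wild type replicate 1 or either rrp6 replicate. Apart from RRP6, the median change of the other 7 was 0.69 at 40 min, 0.85 at 100 min and 0.77 for the mean of both times, beside 0.45 for all genes in each. After median of ratios scaling only AIR2 was called higher and only RRP6 lower in all 3 comparisons, where 36.2%, 41.3% and 48.4% of features were called higher.

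The AIR genes encode the RNA-binding subunits of TRAMP. AIR2 had densities of 0.609 and 0.572 reads per nt in rrp6 at 40 min, against 0.201 and 0.155 in wild type. In the 100 min libraries it had 0.483 and 0.573 in rrp6, against 0.168 and 0.150 in wild type. Every rrp6 library lay above every wild-type library and above every FU library, whose highest value was 0.388. AIR2 rose by 1.68 ± 0.24 at 40 min (adjusted p = 0.000404) and by 1.66 ± 0.24 at 100 min (adjusted p = 0.000392). Relative to the median gene the rise was 1.22 and 1.20, and for the mean of both times 1.21, the 95.0th percentile of genes. Under quantile normalization the rise was 0.73 at 40 min, 0.58 at 100 min and 0.66 over both times. AIR2 stayed called in the 9 settings tried and in the 12 fits that left out 1 library, in each of the 3 comparisons of rrp6 with wild type.

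AIR1, its paralog, had densities of 0.895 and 0.626 in rrp6 at 40 min, against 0.164 and 0.695 in wild type. At 100 min it had 1.07 and 0.654 in rrp6, against 0.353 and 0.564 in wild type. The groups overlapped at 40 min, where the wild-type replicates were far apart. The change over both times was 1.00 ± 0.50 (adjusted p = 0.103), and AIR1 was not called at either time. Without wild type replicate 2 at 40 min it was called over both times, at 1.50. At 40 min its change was 0.10 without wild type replicate 1, and 2.11 (adjusted p = 0.0275) without wild type replicate 2. Those 2 libraries are the ones that differed in their snoRNA share, whose part in the AIR1 values was not tested.

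PAP2 and TRF5 encode the alternative poly(A) polymerases of TRAMP. TRF5 had densities of 0.567 and 0.662 in rrp6 at 40 min, against 0.0914 and 0.274 in wild type. At 100 min it had 0.407 and 0.334 in rrp6, against 0.155 and 0.176 in wild type. All 4 rrp6 libraries lay above all 4 wild-type libraries. TRF5 rose by 1.86 ± 0.47 at 40 min (adjusted p = 0.00816), and its change at 100 min was 1.10 ± 0.47 (adjusted p = 0.0692), which was called without either wild-type replicate at 40 min. Over both times it rose by 1.48 ± 0.33 (adjusted p = 0.00307), or 1.03 relative to the median gene, the 92.9th percentile of genes. The call was lost after median of ratios scaling, where the change was 1.01 with an adjusted p of 0.0501, and under quantile normalization, where it was 0.35 (adjusted p = 0.401). At 40 min the rise was 1.13 without wild type replicate 1 and 2.59 without wild type replicate 2, and it was called in both cases.

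PAP2 had densities of 0.950 and 0.940 in rrp6 at 40 min, against 0.645 and 0.601 in wild type. The 100 min values were 0.648 and 0.617 in rrp6, against 0.530 and 0.423 in wild type. The groups did not overlap at either time. Over both times PAP2 rose by 0.50 ± 0.15 (adjusted p = 0.0122) on the deposited scale, close to the median gene, and its change was 0.02 after median of ratios scaling (adjusted p = 0.913). The call over both times was lost without wild type at 100 min replicate 2 (0.42).

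MTR4, the helicase, had densities of 3.08 and 3.38 in rrp6 at 40 min, against 2.18 and 2.20 in wild type. At 100 min it had 1.86 and 1.87 in rrp6, against 1.72 and 1.55 in wild type. It rose by 0.56 ± 0.16 at 40 min (adjusted p = 0.0135), a call lost without rrp6 replicate 2 (0.49), and its change at 100 min was 0.19 ± 0.16 (adjusted p = 0.314). Over both times it was called higher by 0.37 ± 0.11 (adjusted p = 0.0131) on the deposited scale. Relative to the median gene it was -0.08 and after median of ratios scaling -0.11 (adjusted p = 0.474), so its direction depends on the scale. The call over both times was also lost without rrp6 replicate 2 at 40 min or wild type replicate 2 at 100 min (0.34 in each).

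LRP1 (also called RRP47) encodes a protein that binds Rrp6 and keeps it stable. It had densities of 2.64 and 2.80 in rrp6 at 40 min, against 1.43 and 1.96 in wild type. The later values were 1.93 and 1.82 in rrp6, against 1.04 and 1.03 in wild type. The groups did not overlap at either time, and over both times LRP1 rose by 0.77 ± 0.18 (adjusted p = 0.00368). MPP6 encodes an RNA-binding cofactor of the nuclear exosome. It had densities of 1.27 and 1.28 in rrp6 at 40 min, against 0.665 and 1.04 in wild type, and 0.834 and 0.840 at 100 min, against 0.422 and 0.583 in wild type. It also lay above wild type in all 4 rrp6 libraries at matched times, and over both times it rose by 0.67 ± 0.19 (adjusted p = 0.00999). Neither was called after median of ratios scaling: the change was 0.29 for LRP1 (adjusted p = 0.312) and 0.19 for MPP6 (adjusted p = 0.531).

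**Figure D2:**
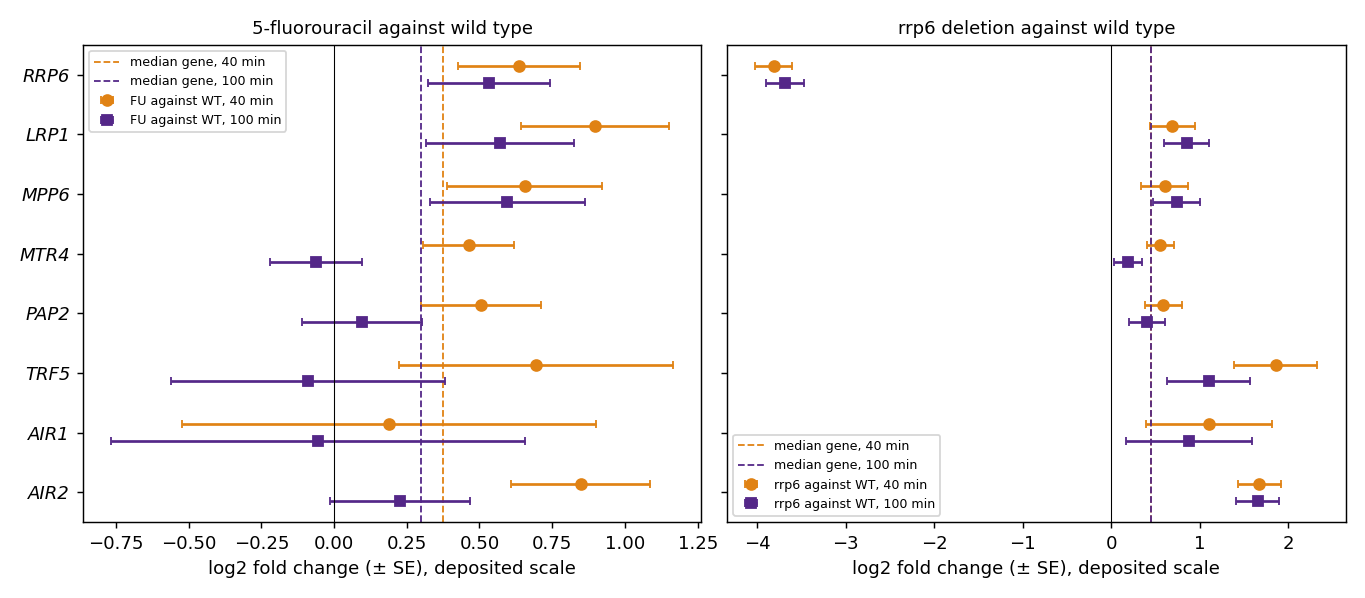
Log2 fold changes (points, bars ± SE, deposited scale) of the 8 genes at 40 min (circles) and 100 min (squares), for FU against wild type on the left and rrp6 against wild type on the right; dashed lines mark the median gene. In rrp6, AIR2 lies 1.22 and 1.20 above the median gene and RRP6 is at -3.81 and -3.69, while with FU RRP6, LRP1 and MPP6 lie right of the median gene at both times.

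With FU 0 of the 8 genes were called at 40 min, where 2.54% of features were called higher and 0.235% lower (1.34% and 0.454% of genes). With p-values left unadjusted and a threshold of 0.05, 6 of them were higher and 0 lower there. At that threshold 3065 of 11485 features were higher and 165 lower. At 100 min 0 were called, against 1.74% of features higher and 0.409% lower (1.94% and 0.769% of genes). There 1 was higher at an unadjusted p under 0.05, as were 2335 of 11485 features. Without FU replicate 1, LRP1 was called at 40 min (1.27). A fit with limma-voom on the reads recovered from the densities also called 0 at each time. For the mean of both times 3 were called higher and 0 lower, against 17.7% and 0.853% of features and 15.5% and 1.55% of genes. These were RRP6, LRP1 and MPP6, the exonuclease and its cofactors, and no TRAMP gene was among them. The split depends on the setting: over the 9 other settings RRP6 and LRP1 were called in 6 each, MPP6 in 3 and AIR2 in 2. After median of ratios scaling 0 were called, with 1.11% of features called higher and 0.74% lower, and none of the 8 passed 0.05 without adjustment.

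RRP6 had densities of 1.96 and 1.72 with FU at 40 min, against 1.30 and 1.07 in wild type without FU. At 100 min it had 1.49 and 1.17 with FU, against 0.951 and 0.868 without. The groups did not overlap at either time, and over both times RRP6 rose by 0.58 ± 0.15 (adjusted p = 0.0312). Relative to the median gene this was 0.25, and after median of ratios scaling 0.24 (adjusted p = 0.351).

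LRP1 had densities of 2.41 and 4.06 with FU at 40 min, against 1.43 and 1.96 without, and 1.73 and 1.37 with FU at 100 min, against 1.04 and 1.03 without. MPP6 had 1.09 and 1.59 with FU at 40 min, against 0.665 and 1.04 without, and 0.834 and 0.686 with FU at 100 min, against 0.422 and 0.583 without. Neither gene's groups overlapped at either time, and replicate 2 was the higher one in both groups at 40 min for both genes. Over both times LRP1 rose by 0.73 ± 0.18 (adjusted p = 0.0285) and MPP6 by 0.63 ± 0.19 (adjusted p = 0.0483). Of the 8 genes 0 were called over both times without either wild-type replicate at 100 min, FU replicate 1 at 100 min or either rrp6 replicate at 40 min. Only RRP6 was called without either rrp6 replicate at 100 min, and only AIR2 without FU replicate 2 at 40 min. MPP6 also lost its call without wild type replicate 1 at 40 min or FU replicate 2 at 100 min, and RRP6 without wild type replicate 2 at 40 min. The lowest change in those fits was 0.50 for RRP6, 0.55 for LRP1 and 0.47 for MPP6.

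AIR2 had densities of 0.388 and 0.275 with FU at 40 min and 0.215 and 0.164 at 100 min, against 0.201 and 0.155 without FU at 40 min and 0.168 and 0.150 at 100 min. Its groups did not overlap at 40 min and overlapped at 100 min, and the change over both times was 0.54 ± 0.17 (adjusted p = 0.0548). AIR2 was called without replicate 1 of wild type at 40 min (0.63) and without replicate 2 of FU at 40 min (0.66). A fit with replicate number as a block also called it, at 40 min (0.85, adjusted p = 0.0465) and over both times (adjusted p = 0.0308). That fit called 860 of 11485 features higher at 40 min and 3281 over both times, beside 292 and 2032 without the block. The other 4 TRAMP genes had changes between 0.07 (AIR1) and 0.30 (TRF5 and PAP2) over both times, all under the 0.33 of the median gene. TRF5 had 0.189 and 0.374 with FU at 40 min and 0.193 and 0.123 at 100 min, and it overlapped its wild-type values at both times.

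Between the times, MTR4 was the 1 gene of the set called, with FU and in rrp6. With FU it had 1.76 and 1.39 at 100 min, against 2.92 and 3.12 at 40 min, and it fell by 0.95 ± 0.16 (adjusted p = 0.0185). This was 1 of 8 genes called lower and 0 called higher, where 1.38% of features were called higher and 2.64% lower (2.41% and 2.9% of genes). At an unadjusted p under 0.05, 6 of the 8 were lower with FU, as were 2004 of 11485 features. With replicate number as a block LRP1 and PAP2 were called lower as well (adjusted p = 0.0439 and 0.0348), among 636 features called lower. In rrp6 MTR4 was again the 1 gene of 8 called lower, with 0 called higher, against 1.08% of features higher and 0.784% lower (1.55% and 1.01% of genes). There it fell by 0.79 ± 0.16 (adjusted p = 0.0422). The call with FU held after median of ratios scaling, where MTR4 fell by 0.84 (adjusted p = 0.0386), and that in rrp6 did not (adjusted p = 0.0773). The call with FU was lost without FU replicate 2 at 40 min or either FU replicate at 100 min, with falls of 0.78 to 1.12. That in rrp6 was lost without any 1 of the rrp6 libraries or of the wild-type libraries at 100 min, with falls of 0.72 to 0.85.

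In wild type 0 of 8 genes were called between the times by limma, against 1.31% of features higher and 1.06% lower (2.32% and 1.43% of genes). There 3 were lower at an unadjusted p under 0.05 and 0 higher, beside 1217 of 11485 features lower and 755 higher. Limma-voom called 0 of the 8. MTR4 had 1.72 and 1.55 at 100 min, against 2.18 and 2.20 at 40 min, a log2 change of -0.42 ± 0.16 (adjusted p = 0.208). LRP1 was -0.69 in wild type (adjusted p = 0.200), -1.02 with FU (adjusted p = 0.0589) and -0.53 in rrp6 (adjusted p = 0.324). It was called with FU without either wild-type replicate at 40 min, and without FU replicate 1 at 40 min (-1.39). The time effect was not shown to differ between conditions. In the rrp6 by time interaction 0 of 8 genes were called, with 0.0174% of features higher and 0.0609% lower (0.0175% and 0.122% of genes), and 0 had an unadjusted p under 0.05. In the FU by time interaction 0 of 8 were called, with 0.00871% of features higher and 0.0958% lower (0.0175% and 0.175% of genes). There 1 was lower at an unadjusted p under 0.05, as were 560 of 11485 features. Limma-voom also called 0 in both interactions.

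Ratios between 2 genes of 1 library do not depend on how the library was scaled. The density of TRF5 was 0.542 to 0.704 of that of PAP2 in the 4 rrp6 libraries, 0.210 to 0.426 with FU and 0.142 to 0.456 in wild type. The rrp6 libraries thus lay above all 8 others. MTR4 relative to the sum of PAP2 and TRF5 was 1.76 to 2.11 in rrp6, 2.17 to 2.68 with FU and 2.51 to 2.96 in wild type, with the rrp6 libraries below all others. TRF5 is part of that sum, so this ratio is not independent of TRF5 over PAP2. MTR4 over PAP2 alone was not computed. For AIR2 over AIR1 the ranges overlapped, at 0.453 to 0.914 in rrp6, 0.358 to 1.99 with FU and 0.222 to 1.23 in wild type. The highest values were those of replicate 1 at 40 min, where AIR1 was low. MPP6 over LRP1 was narrow, at 0.432 to 0.480 in rrp6, 0.391 to 0.501 with FU and 0.406 to 0.568 in wild type. With 2 libraries a group these ratios were not tested.

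**Figure D3:**
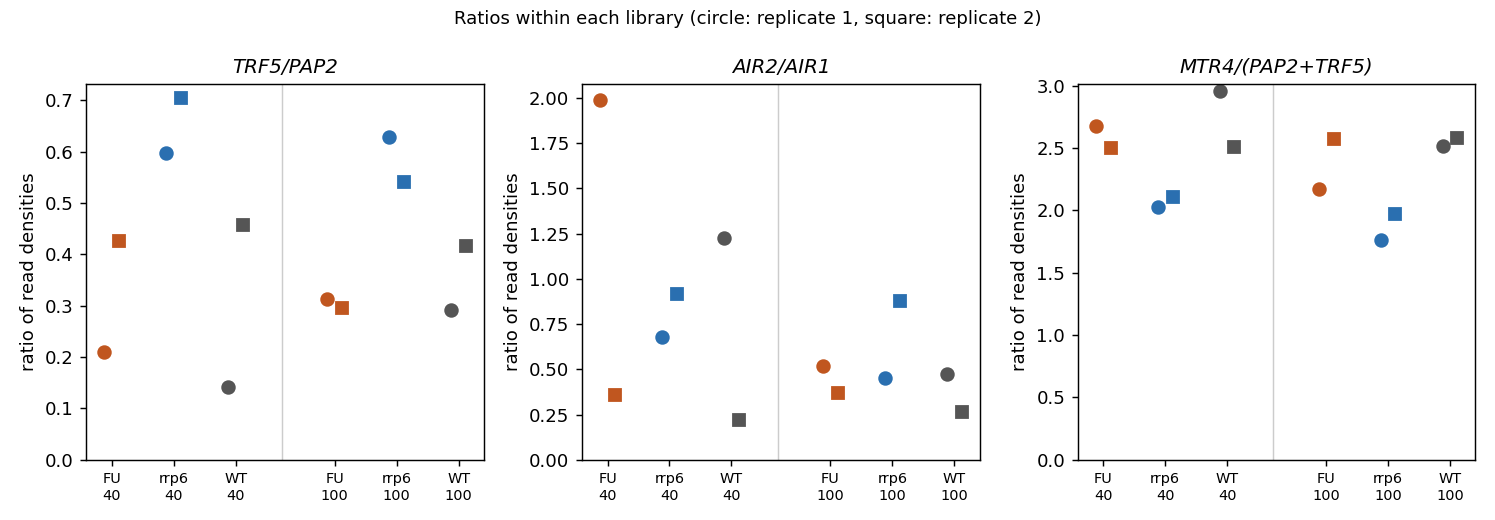
Ratios of read densities within each of the 12 libraries (vertical axes start at 0; circles are replicate 1, squares replicate 2) for TRF5 over PAP2, AIR2 over AIR1, and MTR4 over the sum of PAP2 and TRF5. In rrp6 TRF5 over PAP2 is 0.542 to 0.704 and above all other libraries, and AIR2 over AIR1 reaches 1.99 with FU and 1.23 in wild type in replicate 1 at 40 min.

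Among the features that overlap the 8 genes, CUT798 stood out. It lies on the strand opposite to TRF5, at chr14:67862-68415, and all of its 554 nt lie within the TRF5 gene. It had 203 and 186 reads in rrp6 at 40 min and 69 and 43 at 100 min, against 0 reads in each of the 4 wild-type libraries. With FU it had 1 and 5 reads at 40 min and 2 and 3 at 100 min, against the same wild-type libraries. In rrp6 its mean density was 0.250 ± 0.015 reads per nt at 40 min and 0.0713 ± 0.0237 at 100 min (SD, n = 2). Set against a floor of 3 reads per wild-type library, these means are 51.1-fold higher at 40 min and 13.9-fold higher at 100 min. The floor covers counting error in wild type only, and the spread between the rrp6 libraries is not covered. Wild-type cells had TRF5 reads and 0 reads of CUT798, so the table counts the strands apart. TRF5 and CUT798 both lay above wild type in all 4 rrp6 libraries at matched times.

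**Figure D4:**
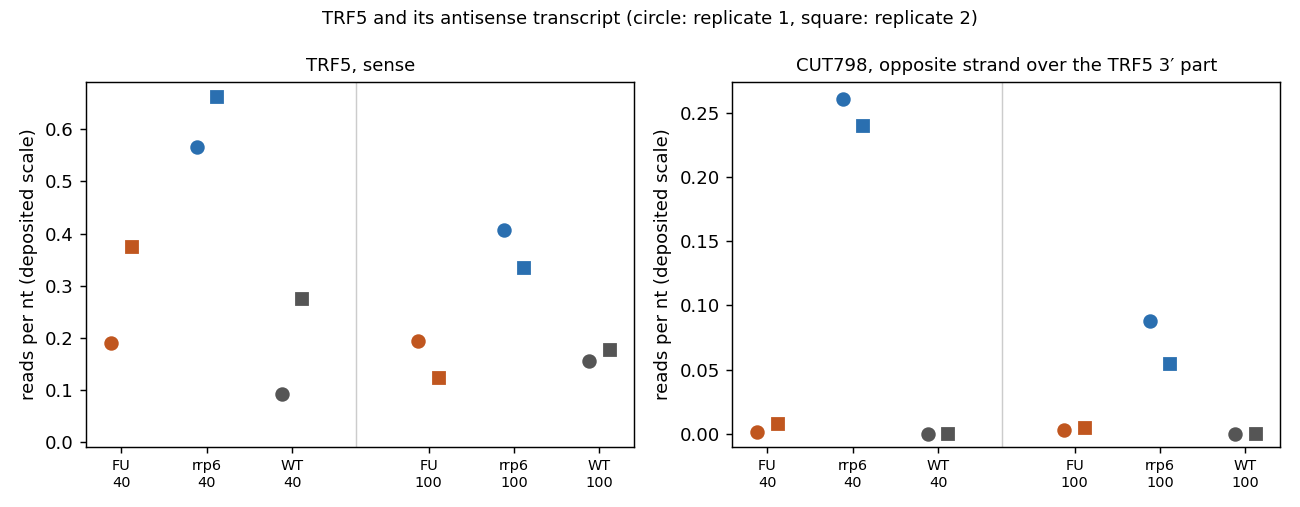
Read density (reads per nt, deposited scale, each axis with its own range) of TRF5 on the left and of CUT798, on the opposite strand over the 3′ part of TRF5, on the right, in 12 libraries; circles are replicate 1 and squares replicate 2. CUT798 averages 0.250 in rrp6 at 40 min and 0.0713 at 100 min and is at 0 in wild type.

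The other overlapping features were weak. MUT1312 (a meiotic unannotated transcript) lies opposite RRP6 over 1132 nt. It had 43 and 40 reads in rrp6 at 40 min and 43 and 32 at 100 min, against 2 to 4 in wild type. RRP6 is the gene deleted in rrp6, and the extent of the deletion is not stated. Whether these reads come from within RRP6 or from beyond it is therefore unknown, and an antisense transcript over RRP6 is not shown. The log2 change of MUT1312 over both times was 1.24 ± 0.13. SUT1760 lies opposite AIR1 over 437 nt and had 16 to 29 reads in rrp6, against 0 to 6 in wild type. Its log2 change was 1.13 ± 0.16. Both changes are on the log2(density + pseudocount) scale, where the pseudocount lay above the wild-type levels, so they understate the change. MUT1312, SUT1760 and CUT798 passed the filter only through the rrp6 libraries. A test of rrp6 would thus not be independent of the filter, and no p-value of that test is given for them. The dubious open reading frame YNR025C lies opposite MPP6 over 268 nt and rose by 0.71 ± 0.15 (adjusted p = 0.00223), but its change was 0.24 after median of ratios scaling and no longer called. MUT1182, which shares 31 nt with TRF5, was too low to be kept. With FU over both times the adjusted p was 0.0753 for YNR025C and 0.128 for CUT798, and higher for MUT1312 and SUT1760.

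Within 500 nt of the 8 genes, but not over them, lie 11 annotated non-coding transcripts (CUTs, SUTs and XUTs), some of which overlap each other. All 11 were called higher in rrp6 over both times, with a median change of 2.35. In that comparison 66.4% of all features and 46.3% of genes were called higher. The share among features that are not genes was thus above 66.4%. After median of ratios scaling 10 of 11 were called higher, against 48.4% of features and 21% of genes. No share for non-coding transcripts alone was computed, so the 11 are not shown to differ from others of their kind. XUT0137 beside AIR2 rose by 2.66 ± 0.28, CUT190 beside AIR1 by 2.68 ± 0.33 and CUT823 beside PAP2 by 2.61 ± 0.31. XUT1373 beside MTR4 rose by 2.40 ± 0.27. SUT160, upstream of LRP1 on its own strand, rose by 1.64 ± 0.20. With FU over both times 2 of the 11 were called higher on the deposited scale, where 17.7% of all features were called higher. Both lie beside MTR4: XUT1373 at 1.39 and SUT632, which it overlaps, at 1.40. Neither was called after median of ratios scaling, where XUT1373 had an adjusted p of 0.149.

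The rest of the pathway was counted beside these genes. Of the 10 core exosome genes, 9 were called higher in rrp6 over both times and 0 lower, with a median change of 0.67 beside 0.45 for all genes, of which 46.3% were called higher (66.4% of features). RRP43 rose by 1.02 ± 0.11 (adjusted p = 3.94e-05) and CSL4 by 0.88 ± 0.12 (adjusted p = 0.000150). Under median of ratios scaling 4 of 10 were called higher, where 21% of genes and 48.4% of features were. NRD1, NAB3 and SEN1, of the termination complex that binds the tetramers shown above, were called higher on both scales. NRD1 rose by 2.97 ± 0.17 (adjusted p = 1.48e-06) and SEN1 by 1.40 ± 0.14 (adjusted p = 2.35e-05). Of the genes of the Mtr4 adaptors, UTP18 rose by 1.13 ± 0.27 (adjusted p = 0.00441) and NOP53 had a change of 0.45 ± 0.21 (adjusted p = 0.0853). Of the 4 genes of the cytoplasmic Ski system 2 were called higher, SKI3 at 0.58 ± 0.14 and SKI7 at 0.56 ± 0.16. RAI1 and RAT1, of the nuclear 5′ exonuclease, rose by 0.84 ± 0.12 and 0.49 ± 0.13. In the adaptor, Ski and 5′ exonuclease lists 0 genes were called higher after median of ratios scaling, and 1 Ski gene was called lower.

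With FU over both times 5 of 10 core exosome genes, 2 of 3 genes of the NRD1 list, 0 of 2 adaptor genes, 1 of 4 Ski genes and 1 of 2 genes of the 5′ exonuclease were called higher, and 0 of these genes lower, where 15.5% of genes and 17.7% of features were called higher. RRP43 rose by 0.52 ± 0.11 (adjusted p = 0.0200) and NRD1 by 0.78 ± 0.17 (adjusted p = 0.0201). RRP43, NRD1 and the other genes of these lists were not called after median of ratios scaling. Median changes were then 0.12 for the core exosome list and 0.36 for the NRD1 list.

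Markers of cell cycle phase and mating type also moved between the groups. Over both times 46.3% of genes were called higher and 7.6% lower in rrp6 (66.4% and 4.14% of features), and 15.5% higher and 1.55% lower with FU (17.7% and 0.853% of features). In rrp6 6 of 6 G2/M genes were called higher over both times (median 1.25) and their summed density was 3.08 to 3.29 at 100 min, against 1.33 to 1.56 in wild type. With FU at 100 min 6 of 7 M/G1 genes were called lower, against 0.769% of genes, and their summed density was 2.23 to 2.39, against 15.5 to 15.6 in wild type. In rrp6 at 100 min it was 7.56 to 7.63 against the same wild-type libraries, with a median change of -0.70 and 2 of 7 genes called lower (5 of 7 after median of ratios scaling), against 5.15% of genes. The G1/S genes summed to 8.83 to 11.8 with FU at 100 min, against 3.63 to 4.37 in wild type. Of these 7 genes 0 were called there. Their changes ran from -1.04 to 1.70, with a median of 0.40 beside 0.30 for all genes. Of the S phase genes 2 of 8, and of the G1/S genes 1 of 7, were called higher in rrp6 over both times and 0 lower, while 1 of 7 M/G1 genes was higher and 1 lower. With FU over both times 1 S phase and 1 G1/S gene were called higher, 0 G2/M genes were called and 5 M/G1 genes were lower. The a-cell markers summed to 0.695 to 0.826 in rrp6, 0.317 to 0.595 with FU and 0.162 to 0.239 in wild type, with 5 of 6 called higher in rrp6 and 2 of 6 with FU over both times. The alpha-cell markers summed to 0.274 to 0.396 in rrp6, 0.189 to 0.342 with FU and 0.448 to 0.638 in wild type, with 2 of 4 called higher and 2 lower in rrp6, and 2 of 4 lower with FU. After median of ratios scaling 4 of 6 a-cell markers were called higher in rrp6 and 1 of 6 with FU. Of the alpha-cell markers 0 of 4 were then called higher and 2 lower in rrp6, and 2 lower with FU. On that scale 21% of genes were called higher and 21.6% lower in rrp6, and 0.803% and 1.41% with FU. No gene of these lists was at 0 in both libraries of a group, but some counts were low. The fewest reads of an a-cell gene were 0 to 1 in the wild-type and FU groups and 5 to 7 in rrp6. The part of cell cycle phase and mating type in the changes of the 8 genes was not tested.

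The patterns across libraries were compared on the log2 scale relative to the median gene of each library. Libraries share conditions and their groups, so the correlations are descriptions. Within the set, MTR4 and PAP2 had a Pearson's r of 0.96 and LRP1 and MPP6 of 0.95 over 12 libraries. Over the 8 libraries that are not rrp6, RRP6 had an r of 0.86 with LRP1 and 0.82 with AIR2. Of 5717 other genes, those most like AIR2 over 12 libraries were GCN2 (r = 0.977), a kinase that phosphorylates the translation factor eIF2, and YSP1 (r = 0.976). Those most like TRF5 were HFI1 (r = 0.973), a subunit of the SAGA coactivator, and ALB1 (r = 0.972). MTR4 was most like NOP2 (r = 0.980), a ribosomal RNA methyltransferase, and MRD1 (r = 0.974), and PAP2 most like MRD1 (r = 0.970) and GCD6 (r = 0.947). LRP1 was most like ENP2 (r = 0.977) and YNG2 (r = 0.968), MPP6 most like YNG2 (r = 0.985) and NOC2 (r = 0.981), and AIR1 most like HAT1 (r = 0.943) and SYG1 (r = 0.928). For RRP6, over 8 libraries, the nearest were TMA64 (r = 0.987) and GAS2 (r = 0.984).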

How the data were processed

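The values in the table that the authors deposited are a signal, here a read density. TopHat, an aligner, is named without a version, per the submitters' processing notes. No label or header names the counting tool or the genome build. From the values, density times feature length divided by 1 factor per library gave whole reads for 100% of values (tolerance 0.001), and density times length sums to 14370740 over genes in every library. Start and end equal those of R64 for 5757 of 5789 genes matched by locus tag, so R64 was used for sequences.

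Tests ran on log2(density + 0.0120173), where the pseudocount is the 10th percentile of values above 0. Features at or above it in at least 2 libraries were kept: 11485 of 12026, with 5725 genes, leaving 541 out. One mean per group was fitted over all 12 libraries with limma 3.58.1 in R 4.3.3 (variance trend, two-sided moderated tests, 6 residual degrees of freedom). Python 3.11.15, pandas 2.3.3, NumPy 2.4.6 and matplotlib 3.10.9 were used for tables and figures. The ± of a fold change is the standard error of this fit.

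The 8 genes, the lists and the alternatives were chosen with earlier results of these data known. Named besides the 8 are features that overlap them or lie within 500 nt, the neighbours of RRP6, the 2 most alike genes for each, and the 2 genes with the smallest p of each pathway list. Alternatives were other pseudocounts, no filter, median of ratios and quantile scaling, values relative to the median gene, genes only, limma-voom on recovered reads, a replicate block and libraries left out. The labels call the replicates biological and do not say that equal numbers pair them.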

Additional observations from a re-analysis of the deposited data

How the results depend on the processing

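The number of the 8 genes called, in both directions together, changed with the scale. In rrp6 against wild type it was 6 at 40 min, 4 at 100 min and 7 for the mean of both times, and 2 in each under median of ratios scaling, quantile normalization and values relative to the median gene. With FU the 3 calls for the mean of both times became 0 under these 3 settings. They became 2 with limma-voom, with no filter and with a pseudocount 10 times larger, and 4 with a pseudocount 0.1 times as large. In rrp6 the time effect had 0 calls under median of ratios scaling, relative to the median gene and with a pseudocount 0.1 times as large, and with FU it had 3 when only genes were fitted. Calls over all 11485 features changed too, given here over both times for median of ratios, quantile and median gene scaling. In rrp6 those higher went from 7622 to 5554, 2611 and 5014, and those lower from 476 to 1329, 3767 and 1373. With FU those higher went from 2032 to 128, 51 and 63, and those lower from 98 to 85, 75 and 66.

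Leaving out both 40 min replicates 1 of wild type and FU, a pair chosen after seeing the data, gave 1 call for FU at 40 min, 2 for FU at 100 min, 2 for time in wild type, 5 for time with FU and 2 for time in rrp6. Leaving out both replicates 2 gave 2 for FU at 100 min, 1 for time in wild type, 3 for time with FU and 2 for time in rrp6. Leaving out 1 library gave 3 to 7 calls in rrp6 at 40 min, 2 to 5 at 100 min and 5 to 8 for both times, 0 to 1 with FU at 40 min and 0 to 3 for both times, and 0 to 2 for time with FU and 0 to 1 for time in rrp6.

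Among the changes given in the text these reversed, in the order median of ratios, quantile, relative to the median gene. In rrp6 at 100 min MTR4 was -0.29, -0.22 and -0.32 and PAP2 -0.069, -0.36 and -0.10, and over both times MTR4 was -0.11, -0.014 and -0.12. Under quantile normalization alone PAP2 was -0.027 at 40 min and -0.19 over both times, and TRF5 was -0.14 at 100 min. With FU over both times MTR4 was -0.15, -0.10 and -0.15, PAP2 -0.042, -0.040 and -0.045, TRF5 -0.028, -0.19 and -0.044, and AIR1 -0.27, -0.28 and -0.28. Leaving out 1 library gave -0.065 to 0.67 for TRF5 and -0.44 to 0.57 for AIR1 with FU over both times. Of the FU changes that are plotted, PAP2 at 100 min was -0.21, -0.18 and -0.23, AIR2 at 100 min -0.070, -0.19 and -0.096, and AIR1 at 40 min -0.18, -0.24 and -0.18. The cause of these differences was not tested.

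With replicate number as a block, 1 gene was called for FU at 40 min (AIR2), 4 for FU over both times (with AIR2 added) and 3 for time with FU (with LRP1 and PAP2 added), while the counts in rrp6 were 6, 4 and 7 as without it. Calls over all 11485 features rose as well. With FU those higher went from 292 to 860 at 40 min and from 2032 to 3281 over both times. Those lower between the times with FU went from 303 to 636. The differences between replicates 1 and 2 correlated across genes at 0.169 to 0.869 between wild type and FU groups, but at -0.356 to 0.202 between rrp6 and these, and the labels state no pairing. With the rrp6 pair at 100 min crossed, the block gave 5 calls in rrp6 at 100 min, 8 over both times and 4 for time with FU. With 2 libraries a group, 1 library can decide a call, and a missed threshold does not show equal levels.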
